A study of Homo sapiens with 12 samples.

Results

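The genes followed here, 10 in all, were the FOXO transcription factors FOXO1, FOXO3 and FOXO4 and a set of genes known as their targets, TXNIP, CCNG2, IRS2, PIK3IP1, KLHL24, SESN1 and BCL6. They were taken from the table by gene symbol, and since they were chosen with earlier results of these data known, their share of calls is not that of an independent list. All 10 were found among the 54628 genes of the count table and passed the filter on low counts with 15492 genes in all. The RNA came from HUDEP-2, a human line of immortalised erythroid precursors whose growth needs the receptor Kit, and 12 libraries formed 4 groups of 3. The cells carried a scrambled guide (sgControl) or one that brings the repressor fusion dCas9-KRAB to an element near EGR1 (sgEGR1), and both constructs were introduced by lentivirus and the infected cells sorted for GFP. All groups were first starved for 5 h in a medium for which the labels list albumin but no erythropoietin, dexamethasone, doxycycline or SCF (stem cell factor, which binds and activates Kit), and were then given PBS or 50 ng/mL SCF for 1 h. The paper's methods name StemSpan SFEM as the base of this medium and do not list its components. Whether cells given PBS were free of other growth factors is therefore not known. One guide stood for each genotype, and the labels do not say whether replicates came from separate infections or cultures, so the p-values measure the spread between these libraries.

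FOXO proteins are switched by growth factor signalling. Receptors such as Kit activate PI3K and then the kinase AKT, which phosphorylates FOXO proteins so that they bind 14-3-3 proteins and leave the nucleus, whereas in the absence of growth factor they stay nuclear and drive genes of cell cycle arrest, stress resistance and feedback on PI3K itself. In erythroid cells FOXO3 is known for its part in maturation and in the defence against oxidants. The question was whether the target genes were lower after Kit was stimulated in starved cells. Unstarved cells and cells with PI3K blocked were not among these libraries, so the rise with starvation itself and the route through PI3K were not measured, and neither was the location of the FOXO proteins.

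Library totals ran from 23.5 to 32.04 megacounts. Replicate 1 of each group stood apart on the first principal component, and in a model with a term for it 4116 genes differed between replicate 1 and the others (edgeR adjusted p under 0.05). EGR1 reached 40.4 and 57.4 CPM (counts per megacount of the scaled library total) in replicates 1 and 2 of sgEGR1 cells given SCF, but 203.6 CPM in replicate 3, inside the range of 171.4 to 239.5 CPM of sgControl cells given SCF, so that this library goes against its label. The erythroid markers, 14 of 14 tested, summed to 27000 to 32200 CPM per library. Of 8 markers of other cell types, CD3E, MS4A1, MPO and PF4 had no count in any library, LYZ reached 6 counts and COL1A1 reached 13, whereas PTPRC, a leukocyte gene, stood at 21.6 to 34.2 CPM and EPCAM at 138 to 171 CPM.

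Promoter sequence was read for the genes from RefSeq windows (GRCh38.p14) that span 250 bases before to 50 bases after each annotated start. All 10 genes matched, with 18 windows among them. The letters GTAAACA, the core that FOXO proteins bind, were searched on both strands (TGTTTAC on the other), as was the E-box CACGTG, which reads the same on both. Of the 18 windows, 3 held the FOXO core, and 3.42% of all 35116 windows held it. The 3 belonged to TXNIP, PIK3IP1 and FOXO4. One window, that of CCNG2, held the E-box, against 7.26% of all windows. These 4 stretches are shown because they carry the letters searched for, with the match in capitals. For TXNIP (chr1:145996580-145996829, minus strand) and CCNG2 (chr4:77156957-77157206, plus strand) the 250 bases before the start are given. For PIK3IP1 (chr22:31292454-31292483, minus strand) and FOXO4 (chrX:71095863-71095892, plus strand) 30 bases around a match after the start are given.
TXNIP: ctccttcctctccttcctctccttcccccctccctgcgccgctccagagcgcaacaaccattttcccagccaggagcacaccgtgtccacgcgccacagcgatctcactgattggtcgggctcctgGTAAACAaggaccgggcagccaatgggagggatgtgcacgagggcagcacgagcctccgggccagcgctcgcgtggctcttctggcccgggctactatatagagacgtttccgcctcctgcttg
CCNG2: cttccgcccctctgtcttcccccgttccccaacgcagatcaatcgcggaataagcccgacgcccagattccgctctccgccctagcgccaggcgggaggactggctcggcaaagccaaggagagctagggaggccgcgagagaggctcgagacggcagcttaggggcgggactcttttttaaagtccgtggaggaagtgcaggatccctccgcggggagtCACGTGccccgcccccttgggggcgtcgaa
PIK3IP1: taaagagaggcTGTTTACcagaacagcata
FOXO4: cccggcgagtgGTAAACAgagacgtcagga
The core began at base 127 of the TXNIP window, and the E-box at base 221 of the CCNG2 window, near its start site. The other windows of the 10 genes held neither run of letters. Only exact matches were searched, so sites that differ from these letters would be missed in any window.

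Of the 10 genes, 6 fell after SCF in sgControl cells: CCNG2, IRS2, PIK3IP1, BCL6, TXNIP and KLHL24. All 6 belong to the targets, and SESN1 and the 3 FOXO genes did not pass the test. Among all genes tested, 2.89% were called in this comparison, 0.775% lower and 2.12% higher. In sgEGR1 cells 5 of the 10 fell, CCNG2, PIK3IP1, BCL6, TXNIP and KLHL24, where 2.59% of all genes were called, 0.788% lower and 1.81% higher. The tests used the quasi-likelihood test of edgeR on all 12 libraries, with p-values adjusted over all genes. The median log2 fold change of the 10 genes was -0.51 in sgControl and -0.52 in sgEGR1 cells, against -0.006 and -0.000485 over all genes tested. The libraries were made from bulk RNA, in which fewer cells of a type and less RNA per cell cannot be told apart.

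**Figure D1:**
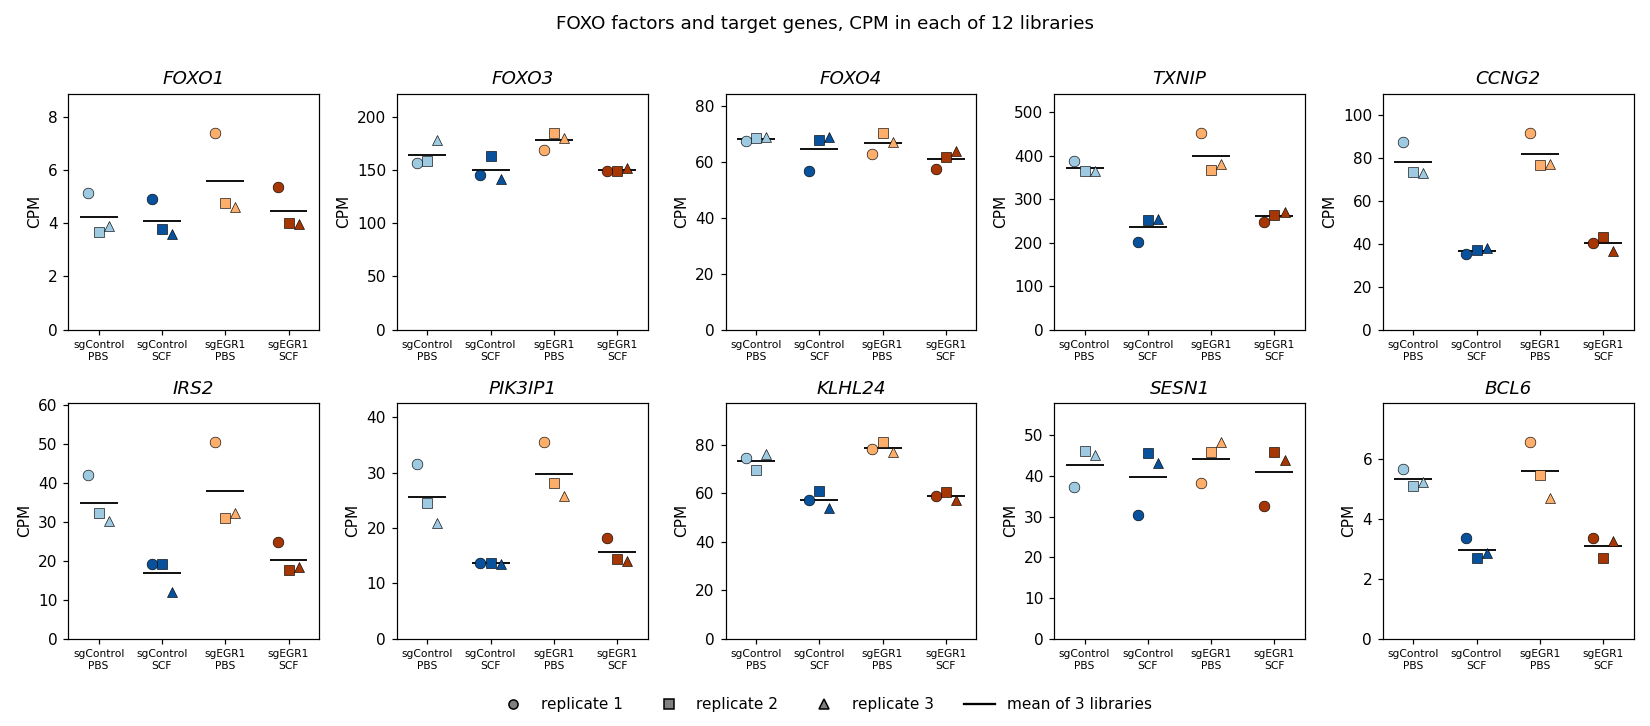
Level of each FOXO factor and target gene in CPM (vertical axes, from 0) in the 4 groups (horizontal axes). Each symbol is 1 library, its shape gives the replicate number and the line is the mean of 3. The libraries given SCF lie below all libraries given PBS of the same genotype for TXNIP, CCNG2, IRS2, PIK3IP1, KLHL24 and BCL6, and overlap them in both genotypes for FOXO1, FOXO4 and SESN1.

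CCNG2 (chr4:77157207-77433388, plus strand in GENCODE on GRCh38), which encodes the unconventional cyclin G2 linked to cell cycle arrest, showed the lowest fold change of the 10 genes. In sgControl cells its levels in replicates 1, 2 and 3 were 87.4, 73.8 and 73.1 CPM after PBS and 35.3, 37.0 and 38.1 CPM after SCF. In sgEGR1 cells they were 91.8, 76.9 and 77.4 CPM after PBS and 40.5, 43.3 and 36.9 CPM after SCF. All libraries given SCF lay far below the lowest library given PBS. The mean after SCF was 47.1% of that after PBS in sgControl and 49.1% in sgEGR1 cells. The log2 fold change was -1.09 ± 0.09 (SE, edgeR adjusted p = 9.33e-05) in sgControl and -1.03 ± 0.09 (adjusted p = 0.000117) in sgEGR1 cells.

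TXNIP (chr1:145992435-145996579, minus strand), the thioredoxin-interacting protein that restrains glucose uptake and binds thioredoxin, was the most abundant of the 10 genes per length. Its libraries gave 387.6, 364.6 and 364.8 CPM after PBS and 200.3, 251.8 and 253.9 CPM after SCF in sgControl cells. With sgEGR1 they gave 452.3, 367.8 and 380.2 CPM after PBS and 248, 263.2 and 269.3 CPM after SCF. The groups did not overlap in either genotype, and replicate 1 had both the highest level after PBS and the lowest after SCF. The log2 fold change of TXNIP was -0.66 ± 0.09 (edgeR adjusted p = 0.00265) with sgControl and -0.62 ± 0.09 (adjusted p = 0.00401) with sgEGR1, so that 63.2% and 65.0% of the level after PBS remained.

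Both genes that act on PI3K itself were lower after SCF in sgControl cells. PIK3IP1 (chr22:31281594-31292534, minus strand), a transmembrane protein that inhibits PI3K, stood at 31.5, 24.5 and 20.9 CPM after PBS and at 13.7, 13.7 and 13.4 CPM after SCF in sgControl cells. In sgEGR1 cells it stood at 35.5, 28.1 and 25.8 CPM after PBS and at 18.2, 14.5 and 14.1 CPM after SCF. The 3 libraries of sgControl cells given SCF lay very close together, and no group given SCF overlapped its control. PIK3IP1 had a log2 fold change of -0.91 ± 0.16 (edgeR adjusted p = 0.00896) with sgControl and of -0.93 ± 0.16 (adjusted p = 0.00743) with sgEGR1. Its exons overlap the opposite-strand gene PIK3IP1-DT, and whether reads were counted by strand was not stated, so its counts are uncertain to that extent.

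IRS2 (chr13:109752695-109786583, minus strand), the adaptor that carries signals from the insulin and IGF1 receptors to PI3K, had the largest standard error among the genes that fell. In sgControl cells it was counted at 41.9, 32.2 and 30.1 CPM after PBS and at 19.2, 19.1 and 12.01 CPM after SCF. In sgEGR1 cells the values were 50.4, 30.9 and 32.3 CPM after PBS and 24.9, 17.5 and 18.4 CPM after SCF. Within each genotype every library given SCF lay below every library given PBS, and replicate 1 was the highest library of each group, narrowly so in sgControl cells given SCF. The log2 fold change was -1.05 ± 0.23 in sgControl cells (edgeR adjusted p = 0.0312) and -0.90 ± 0.23 in sgEGR1 cells, where the adjusted p was 0.0616. The call in sgControl cells was lost whichever 1 of their 6 libraries was left out, with an edgeR adjusted p of up to 0.108. IRS2 overlaps an unnamed gene on the opposite strand and carries the same uncertainty as PIK3IP1.

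BCL6 (chr3:187721377-187745725, minus strand), a zinc finger repressor of transcription known from germinal centre B cells, was among the least abundant of the 10. Its levels were 5.67, 5.08 and 5.24 CPM after PBS and 3.35, 2.70 and 2.86 CPM after SCF in sgControl cells. In sgEGR1 cells they were 6.56, 5.48 and 4.71 CPM after PBS and 3.35, 2.71 and 3.25 CPM after SCF. The groups were separate in both genotypes although the level was low. The log2 fold change was -0.84 ± 0.15 in both genotypes (edgeR adjusted p = 0.0129 with sgControl and 0.0125 with sgEGR1). The call did not hold in sgControl cells without their SCF replicate 2 or 3, with an edgeR adjusted p of up to 0.0585, nor in sgEGR1 cells without their SCF replicate 2 or with only their own 6 libraries in the model. BCL6 exons overlap unnamed genes on the opposite strand.

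KLHL24 (chr3:183635610-183684519, plus strand), a kelch-like adaptor of the cullin 3 ubiquitin ligase, had the smallest change among the targets that fell. It was found at 74.3, 69.5 and 76.1 CPM after PBS and at 57.3, 60.9 and 53.6 CPM after SCF in sgControl cells. For sgEGR1 cells the levels were 78.4, 81.0 and 76.8 CPM after PBS and 58.7, 60.4 and 57.1 CPM after SCF. The spread within each group was small and the groups did not overlap. KLHL24 fell to 78.2% of the level after PBS in sgControl (log2 fold change -0.36 ± 0.05, edgeR adjusted p = 0.0043) and to 74.6% in sgEGR1 cells (log2 fold change -0.42 ± 0.05, adjusted p = 0.00143).

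SESN1 (chr6:108984309-109094846, minus strand) encodes sestrin 1, a stress protein that restrains mTORC1, and was the target that did not pass the test in either genotype. It stood at 37.2, 46.0 and 45.0 CPM after PBS and at 30.4, 45.7 and 43.1 CPM after SCF in sgControl cells. In sgEGR1 cells the values were 38.3, 45.8 and 48.3 CPM after PBS and 32.6, 45.9 and 44.03 CPM after SCF. The groups overlapped, and replicate 1 was the lowest library in all 4 of them. Its log2 fold change was -0.11 in both genotypes, with 95% intervals of -0.46 to 0.25 in sgControl and -0.47 to 0.24 in sgEGR1 cells (edgeR adjusted p = 0.867 and 0.84). A fall as large as that of TXNIP lay outside both intervals. SESN1 too overlaps an unnamed gene on the opposite strand.

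Among the factors themselves, FOXO3 (chr6:108559835-108684774, plus strand) had the highest level. It was measured at 156.5, 158.8 and 177.9 CPM after PBS and at 145.2, 163.1 and 141.3 CPM after SCF in sgControl cells, where the groups overlapped. In sgEGR1 cells the levels were 168.8, 184.9 and 180.6 CPM after PBS and 148.8, 149.4 and 151.6 CPM after SCF, with no overlap. The log2 fold change was -0.13 ± 0.06 in sgControl (edgeR adjusted p = 0.369) and -0.25 ± 0.06 in sgEGR1 cells (adjusted p = 0.0656). Averaged over both genotypes it was -0.19 ± 0.04 and passed the test (adjusted p = 0.0195). In that average 1 of 5 libraries decided the call, since FOXO3 did not pass when replicate 1 or 3 of sgControl SCF, 2 or 3 of sgEGR1 PBS, or 2 of sgEGR1 SCF was left out. Of the 75-base stretches of FOXO3 exons, 27.8% are shared with FOXO3B, which stood at group means of 2.26 to 2.83 CPM.

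FOXO4 and FOXO1 did not pass the test in any of these comparisons. FOXO4 (chrX:71095851-71103532, plus strand) gave 67.3, 68.4 and 68.9 CPM after PBS and 56.5, 67.8 and 68.9 CPM after SCF in sgControl cells. The corresponding values in sgEGR1 cells were 62.7, 70.3 and 67.1 CPM and 57.3, 61.7 and 63.9 CPM. Replicate 1 was the lowest of each group. The log2 fold change of FOXO4 was -0.08 (95% interval -0.24 to 0.08) in sgControl and -0.13 (-0.29 to 0.03) in sgEGR1 cells. FOXO1 (chr13:40555667-40666641, minus strand) was rare, at 5.13, 3.66 and 3.92 CPM after PBS and 4.91, 3.80 and 3.62 CPM after SCF in sgControl cells. Its values in sgEGR1 cells were 7.41, 4.77 and 4.61 CPM and 5.38, 4.02 and 4.00 CPM. Here replicate 1 was the highest of each group. The intervals of its log2 fold change were wide, from -0.52 to 0.43 in sgControl and from -0.80 to 0.15 in sgEGR1 cells. A same-strand gene shares 21.2% of the 75-base stretches of FOXO1 exons, so its counts are uncertain as well.

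**Figure D2:**
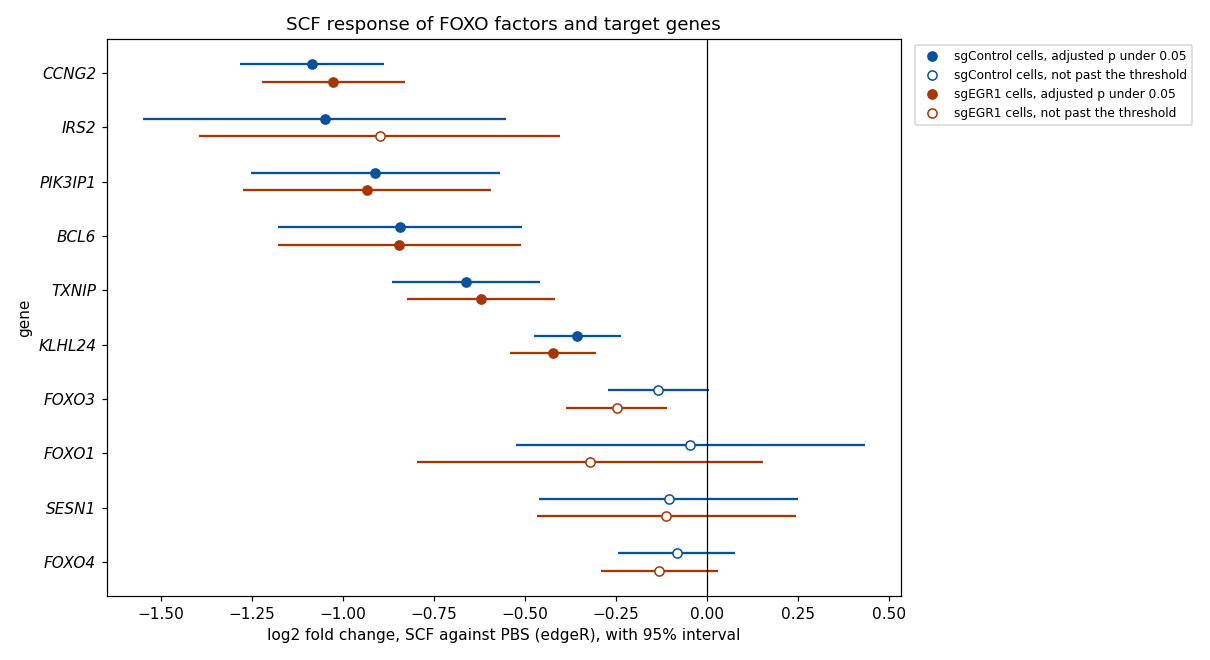
Log2 fold change of SCF against PBS (horizontal axis, edgeR) for each gene (vertical axis, ordered by the average over both genotypes), in sgControl and sgEGR1 cells. Bars are 95% intervals and filled points have an adjusted p under 0.05. The points of CCNG2, IRS2, PIK3IP1, BCL6, TXNIP and KLHL24 lie between -1.09 and -0.36 in both genotypes, and those of SESN1, FOXO4, FOXO3 and FOXO1 between -0.32 and -0.05.

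The absence of overlap was also counted over all genes. In sgControl cells 9.24% of the genes tested, and in sgEGR1 cells 10% of them, had all libraries given SCF below all libraries given PBS, and 3.47% had this pattern in both genotypes. The opposite pattern was found for 10.4%, 11.2% and 5.57%. Of the 10 genes, 6 had all libraries given SCF below those given PBS in both genotypes, and FOXO3 had this in sgEGR1 cells but not in sgControl cells. An exact permutation test of 3 libraries against 3 could not go below p = 0.1. When both genotypes were averaged, so that 6 libraries stood against 6, the test called 7 of the 10 genes lower, the targets except SESN1 together with FOXO3. In that average edgeR called 9.03% of all genes, 3.45% as lower and 5.58% as higher. The average log2 fold changes were -1.06 ± 0.06 for CCNG2 (adjusted p = 2.04e-06), -0.98 ± 0.16 for IRS2 (0.00271), -0.92 ± 0.11 for PIK3IP1 (0.000306), -0.84 ± 0.11 for BCL6 (0.000521), -0.64 ± 0.07 for TXNIP (9.49e-05) and -0.39 ± 0.04 for KLHL24 (6.82e-05). This average uses the same libraries as the separate comparisons and is no further evidence beside them. Erythroid markers moved little with SCF. Of the 14, 12 were below 0 in the average, with a median of -0.12, and only EPOR was called (log2 fold change -0.14, edgeR adjusted p = 0.036), a call that was lost in 10 of 12 fits that left out 1 library. The part of this in the fall of the target genes was not tested.

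The genotype made no difference that passed the test for any of the 10 genes. After PBS, after SCF and for the difference between the responses, edgeR called 0 of the 10 genes and 0% of the 15492 tested, and 0 of the 10 had an unadjusted p under 0.05. DESeq2 also called 0 of the 10, with 20, 5 and 4 calls over all genes. Over all genes, an unadjusted p under 0.05 was found by edgeR for 715, 361 and 306 genes in these 3 comparisons. EGR1, near which the sgEGR1 guide acts, was not called between genotypes either. Its log2 difference was -2.59 ± 0.80 after PBS (SE, edgeR adjusted p = 0.999) and -1.03 ± 0.45 after SCF. The absence of a call therefore does not show that a gene had the same level in both genotypes. After PBS the log2 difference of sgEGR1 against sgControl ranged from -0.03 for FOXO4 to 0.40 for FOXO1, whose 95% interval was -0.08 to 0.87 and whose value ran from 0.142 to 0.559 when single libraries were left out. After SCF it ranged from -0.08 for FOXO4 to 0.27 for IRS2, which ran from 0.0814 to 0.377 in the same way. The difference of the responses, sgEGR1 minus sgControl, was 0.06 for CCNG2 (95% interval -0.22 to 0.33), 0.04 for TXNIP (-0.25 to 0.33) and -0.07 for KLHL24 (-0.24 to 0.10). These intervals leave room for a difference of up to 0.33 on the log2 scale in CCNG2 and TXNIP, so they do not show that the responses were equal. For IRS2 (-0.55 to 0.85) and FOXO1 (-0.95 to 0.40) they are wider. These comparisons share libraries with each other and with the SCF comparisons. They were also made with a library whose EGR1 level goes against its label, but without it 0 of the 10 genes were called as well.

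Compared per length, as CPM per kilobase of the union of exons, the order of the 10 genes was read in sgControl cells given PBS. TXNIP led with 103.3 ± 3.67 CPM per kilobase (SD, n = 3), followed by FOXO3 with 21.4 ± 1.53, FOXO4 with 18 ± 0.22 and CCNG2 with 10.5 ± 1.09. KLHL24 (8.47 ± 0.39), PIK3IP1 (6.73 ± 1.42), SESN1 (5.88 ± 0.67) and IRS2 (4.26 ± 0.77) came next, and neighbours among these 4 overlapped. BCL6 (0.90 ± 0.05) and FOXO1 (0.71 ± 0.13) stood last and also overlapped. After SCF the first 3 places stayed with TXNIP, FOXO3 and FOXO4 in both genotypes. CCNG2 moved from the place before KLHL24 to the place after SESN1, at 4.96 ± 0.19 CPM per kilobase in sgControl and 5.43 ± 0.43 in sgEGR1 cells, although SESN1 and CCNG2 overlapped there. With the longest transcript as the length, CCNG2 stood above SESN1 in sgEGR1 cells given SCF, at 7.36 against 7.21 CPM per kilobase. BCL6 stood below FOXO1, with 0.50 ± 0.06 against 0.69 ± 0.12 CPM per kilobase in sgControl cells and no overlap, although they did overlap when the longest transcript was taken as the length.

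**Figure D3:**
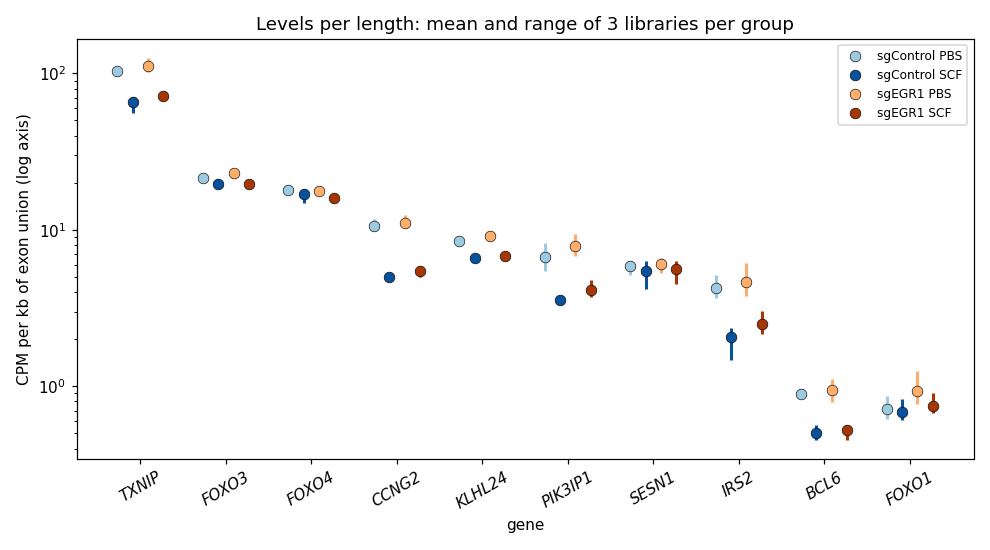
CPM per kilobase of exon union (vertical axis, log scale) for the 10 genes (horizontal axis) in the 4 groups. Points are means and bars the range of 3 libraries, and TXNIP lies highest with group means of 65.3 to 111.0 while BCL6 and FOXO1 lie lowest with 0.50 to 0.94.

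Replicate 1 touched several of these genes. In the model with a term for it, edgeR placed replicate 1 above the others for FOXO1 (log2 difference 0.48, adjusted p = 0.000664), IRS2 (0.47, adjusted p = 0.00184) and PIK3IP1 (0.32, adjusted p = 0.00379), and below them for SESN1 (-0.40, adjusted p = 3.32e-05) and FOXO4 (-0.14, adjusted p = 0.011). CCNG2, TXNIP, KLHL24, BCL6 and FOXO3 did not pass the same test. All groups hold 1 such library, and with the term included the 6 calls in sgControl cells were the same 6. In sgEGR1 cells the term added IRS2 and FOXO3 to the 5, and with replicates 2 and 3 alone IRS2 was added. Over all genes, calls in sgEGR1 cells rose from 402 to 1326 with the term and to 690 with replicates 2 and 3 alone.

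Profiles over the 12 libraries are given as a description, since the libraries share treatment and replicate. Among the 6 target genes other than SESN1, Pearson r between pairs ran from 0.85 to 0.963, whereas r of SESN1 with these 6 ran from -0.0525 to 0.389, and from 0.664 to 0.879 after centring within replicate numbers. The highest Pearson r between any 2 of the 10 genes was 0.963, for TXNIP and CCNG2, and it was 0.972 after centring within replicate numbers. The lowest was -0.556, for FOXO1 and SESN1, which became 0.638 after centring. Among 9854 genes of at least 5 CPM, those nearest to the mean profile of the 10 were GPR146 (r = 0.976), GCLC, CDKN1B and BRD8 (0.972 each) and ARRDC3 (0.971). Gene by gene, the nearest was BRD8 for CCNG2 (0.983), PIM1 for TXNIP (0.969), ARRDC3 for PIK3IP1 (0.971) and for BCL6 (0.972), and GABPB1-IT1 for IRS2 (0.976). SESN1 was nearest to EYA1 (0.96, or 0.79 after centring), FOXO1 to PLXNB3 (0.963), FOXO3 to TNKS (0.951) and FOXO4 to CMAHP (0.976).

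A longer list held 45 reported FOXO targets outside the 10 genes. Of these, 37 passed the filter, and in the average response 11 fell, 3 rose and 23 did not pass the edgeR test, where 3.45% of all genes were called lower and 5.58% higher. The median log2 fold change of the 37 was -0.066, against -0.00447 for all genes and -0.52 for the 10 genes followed here. In sgControl cells 5 fell and 2 rose (0.775% and 2.12% of all genes), and in sgEGR1 cells 7 fell and 2 rose (0.788% and 1.81% of all genes). These counts depended on how replicate 1 was treated, with 12 lower in each genotype when it had its own term. Calls over all genes, in either direction, rose with that term too. They went from 448 to 1289 in sgControl and from 402 to 1326 in sgEGR1 cells. PDK4, the kinase that turns off pyruvate dehydrogenase, fell from 4.08 ± 0.67 to 1.70 ± 0.26 CPM in sgControl cells (SD, n = 3) and averaged -1.38 ± 0.12 on the log2 scale over both genotypes (edgeR adjusted p = 2.22e-05). PCK1, which encodes an enzyme of gluconeogenesis, averaged -0.79 ± 0.19 (adjusted p = 0.0217) but did not pass in either genotype alone, nor in the average without replicate 3 of sgControl PBS, sgControl SCF or sgEGR1 PBS. CDKN1B, the cell cycle inhibitor p27, fell from 99.5 ± 3.92 to 61.5 ± 6.05 CPM in sgControl and from 100.2 ± 4.33 to 62.2 ± 0.59 CPM in sgEGR1 cells, an average of -0.69 ± 0.05 (adjusted p = 4.5e-06). CCND1, the cyclin D1 gene that FOXO factors are reported to repress, rose from 8.35 ± 0.60 to 14.6 ± 2.03 CPM in sgControl cells and averaged 0.79 ± 0.09 (adjusted p = 0.000142).

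**Figure D4:**
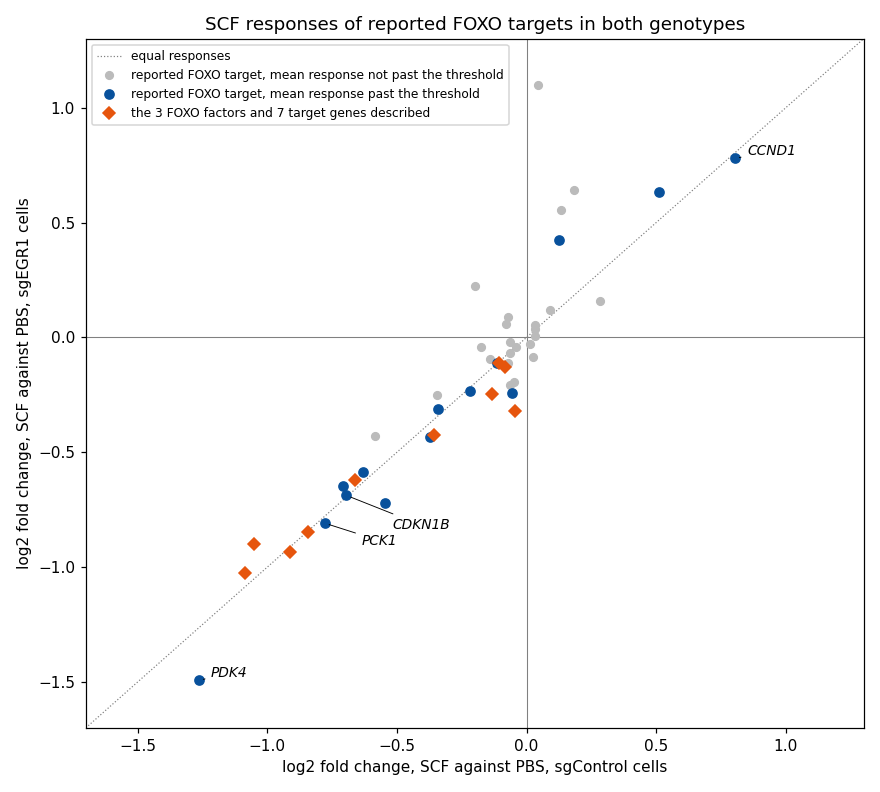
Log2 fold change of SCF against PBS in sgControl (horizontal axis) and sgEGR1 cells (vertical axis) for 37 reported FOXO targets (circles, blue where the average response passed the edgeR test) and the 10 genes followed here (diamonds). The dotted line marks equal responses. Of the blue circles, 11 lie below 0 and 3 above, and 6 diamonds lie at -0.36 or lower on both axes.

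Genes upstream of FOXO were read from 2 further lists. Of 33 genes of the Kit, PI3K, AKT and mTOR route, 29 were tested, 2 fell in the average response and 27 did not pass, where 3.45% of all genes were called lower. These were TSC1 (-0.23 ± 0.04, edgeR adjusted p = 0.00543) and TSC2 (-0.15 ± 0.04, adjusted p = 0.0358), the partners that hold back mTORC1. TSC1 passed in sgEGR1 cells (edgeR adjusted p = 0.0316) but not in sgControl cells (adjusted p = 0.154). TSC2 did not pass in either genotype alone, and its average call was lost in 9 of 12 fits that left out 1 library. KIT itself stood at 497.1 ± 31.1 CPM after PBS and 492.6 ± 10.1 CPM after SCF in sgControl cells (SD, n = 3). Of 26 regulators of FOXO proteins, 25 were tested, 4 rose and 21 did not pass, where 5.58% of all genes were called higher. Of the 6 tested genes for 14-3-3 proteins, which hold phosphorylated FOXO in the cytoplasm, 3 rose, YWHAG (0.27 ± 0.05, edgeR adjusted p = 0.00266), YWHAZ (0.16 ± 0.03, adjusted p = 0.00218) and YWHAH (0.16 ± 0.03, adjusted p = 0.0114). YWHAB, YWHAE and YWHAQ did not pass (edgeR adjusted p = 0.207, 0.594 and 0.743). YWHAE was barely counted, at group means of 0.67 to 1.02 CPM, so its response was poorly measured. The other tested 14-3-3 genes had group means of 144.3 CPM or more. In single genotypes YWHAZ passed in both, YWHAG in sgControl cells and YWHAH in neither. The other gene that rose was the stress kinase gene MAPK8 (0.16 ± 0.04, edgeR adjusted p = 0.0339), which passed in neither genotype alone and lost its average call in 8 of 12 fits that left out 1 library.

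Of 13 listed relatives of the 10 genes, 11 were tested, with 1 lower and 1 higher in the average response (3.45% and 5.58% of all genes), and both are alpha-arrestins like TXNIP. ARRDC3, an adaptor for receptor trafficking, fell from 72.7 ± 9.84 to 31.8 ± 1.15 CPM in sgControl and from 80.1 ± 18.4 to 35.2 ± 2.32 CPM in sgEGR1 cells (SD, n = 3), an average of -1.19 ± 0.10 on the log2 scale (edgeR adjusted p = 1.8e-05). ARRDC4 rose from 38.7 ± 2.97 to 55.2 ± 1.59 CPM and from 38.6 ± 3.13 to 55.2 ± 3.92 CPM in the same groups, an average of 0.51 ± 0.05 (adjusted p = 9.49e-05). Among the 16 genes for partners of the proteins encoded by the 10, all were tested, 14 did not pass and 2 rose, where 5.58% of all genes were called higher. These were MLX (0.28 ± 0.06, edgeR adjusted p = 0.0114), the dimer partner of the glucose sensors that drive TXNIP, and BCOR (0.20 ± 0.05, adjusted p = 0.0208), a corepressor that binds BCL6. Neither passed in either genotype alone, and BCOR lost its average call without replicate 2 or 3 of sgEGR1 PBS.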

How the data were processed

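RNA-seq was analysed in 12 libraries of HUDEP-2 cells. The authors aligned reads with HISAT (hg38) and deposited the estimated count of each gene from StringTie, unscaled and not pooled. All deposited values were whole, and 0 columns were left out. The processing notes of the submitters also name SAMtools and bcl2fastq. Labels and methods do not give the same library kit, and use of strand in counting was not given in the sources used here. A guide code in the column names was assigned to sgEGR1, the only construct in the labels besides the scrambled control.

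Genes were kept by filterByExpr (15492 genes), scaled by TMM and tested with the quasi-likelihood test of edgeR 4.0.16 (R 4.3.3) with 1 coefficient per group, at a Benjamini-Hochberg adjusted p under 0.05. The code was tested on simulated data. CPM used the scaled library totals. Counting error is only part of the error between libraries. Alternatives were DESeq2 1.42.0, its size factors, no filter, a replicate block, a term for replicate 1, replicates 2 and 3 only, only the groups compared, and each library left out in turn. Gene structure came from GENCODE on GRCh38.

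The genes and lists were chosen with earlier results of these data known. All 10 genes were named in every SCF comparison, and from each list up to 4 genes with the largest absolute change among those called in the average response. A planned search for AKT sites in the proteins was not run. A result on profile likeness is not reported here. Residuals of same-numbered libraries correlated at 0.232, 0.103 and 0.119 between genotypes after PBS for replicates 1, 2 and 3. After SCF these values were 0.269, 0.102 and 0.126. Replicate 1, which stood apart in every group, gave the highest value in both, so these values do not show that the numbers pair the groups. The tests between genotypes were therefore made without pairing, and the blocked fit changed no call for the 10 genes between genotypes.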

Additional observations from a re-analysis of the deposited data

How the results depend on the processing

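CCNG2, TXNIP, PIK3IP1 and KLHL24 stayed called lower in both genotypes under all 20 alternatives. Leaving out 1 library gave 4 to 6 genes called of 10 in sgControl cells, 4 to 6 in sgEGR1 cells and 6 to 7 in the average. Calls over all genes in those fits ran from 194 to 448, from 176 to 428 and from 1032 to 1408. DESeq2 called 6, 7 and 7 of the 10, with 759, 770 and 1790 calls over all genes. Values of genes that did not pass the test changed sign when single libraries were left out, and these ranged for the SCF response from -0.191 to 0.119 for FOXO1, -0.133 to 0.00502 for FOXO4 and -0.213 to 0.0585 for SESN1 in sgControl cells, and from -0.202 to 0.0295 for SESN1 in sgEGR1 cells. Between genotypes after PBS FOXO4 ranged from -0.0754 to 0.0071, and the difference of the responses ranged from -0.0627 to 0.137 for TXNIP, -0.0322 to 0.145 for CCNG2 and -0.0404 to 0.409 for IRS2. These are not all the sign changes between genotypes. Over all alternatives, 5 of the 10 genes changed sign after PBS, 5 after SCF and 7 for the difference of the responses. FOXO3 after SCF ranged from -0.0387 to 0.0605, and the difference of the responses of BCL6 from -0.112 to 0.128.

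With the replicate number as a block, 6, 7 and 8 of the 10 genes were called in sgControl cells, in sgEGR1 cells and in the average. IRS2 and FOXO3 were added in sgEGR1 cells and FOXO4 in the average. Calls over all genes rose in the same fits to 1184, 1235 and 2799, from 448, 402 and 1399 without the block. None of the 10 genes were called between genotypes or for the difference of the responses. Same-numbered libraries of 1 genotype correlated at 0.272, 0.00766 and 0.108 in sgControl and at 0.23, 0.0749 and 0.062 in sgEGR1 cells, so the numbers are not taken to pair the SCF comparisons. The block also moved the counts of the longer target list, to 10 lower in sgControl (5 without it), 12 lower (7) and 4 higher (2) in sgEGR1 cells, and 6 higher (3) in the average. With a term for replicate 1 these were 12, 12, 4 and 6. Replicates 2 and 3 alone gave 8 lower in sgControl cells, and the term with the sgEGR1 SCF library 3 left out gave 11 lower there and 6 higher in the average. Calls over all genes moved as well. The term gave 1289 in sgControl cells, 1326 in sgEGR1 cells and 2868 in the average. Replicates 2 and 3 alone gave 575 in sgControl cells. The term without that library gave 1186 in sgControl cells and 2442 in the average. The settings of the list were chosen after seeing the data, and the cause of these shifts was not tested.

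With the longest transcript as gene length, the CPM per kilobase in sgControl cells given PBS was 128.2 for TXNIP, 18.72 for FOXO4, 14.27 for CCNG2, 9.931 for KLHL24, 8.452 for PIK3IP1, 7.547 for SESN1 and 1.276 for BCL6, and the order of the 10 genes did not change.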

Other observations

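The reported FOXO targets that passed the test in the average response, beyond those already named, are given here and were chosen after their values were seen. BBC3, which encodes the apoptosis factor PUMA, went from 36.2 ± 2.61 to 22.2 ± 3.21 CPM in sgControl cells (SD, n = 3) and averaged -0.68 ± 0.07 on the log2 scale over both genotypes (edgeR adjusted p = 0.000156). BCL2L11, which encodes BIM, averaged -0.33 ± 0.07 (adjusted p = 0.00789) and did not pass in either genotype alone. PMAIP1, which encodes the apoptosis factor NOXA, averaged 0.35 (adjusted p = 0.141) and BNIP3 -0.01 (adjusted p = 0.953), and neither passed. The transcriptional regulators CITED2 (-0.61 ± 0.05, edgeR adjusted p = 1.4e-05) and HBP1 (-0.40 ± 0.05, adjusted p = 0.000219) fell in both genotypes, although HBP1 was not called in sgControl cells without their PBS replicate 3.

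FBXO32, which encodes the ubiquitin ligase subunit atrogin-1, averaged -0.63 ± 0.12 (edgeR adjusted p = 0.00537) and passed in sgEGR1 cells alone (adjusted p = 0.0401, against 0.118 in sgControl cells), where its call was lost in 8 of 12 fits that left out 1 library. The mitophagy genes PINK1 and BNIP3L averaged -0.22 ± 0.04 (adjusted p = 0.0044) and -0.11 ± 0.03 (adjusted p = 0.042), and RICTOR, a subunit of mTORC2, averaged -0.15 ± 0.03 (adjusted p = 0.0124), a call lost with replicates 2 and 3 alone. RICTOR passed in sgEGR1 cells (-0.24, edgeR adjusted p = 0.0153) but not in sgControl cells (-0.06, adjusted p = 0.676). Its call in sgEGR1 cells was lost in 5 of 12 fits that left out 1 library. PINK1 and BNIP3L passed in neither genotype alone, and BNIP3L lost its average call in 10 of 12 fits that left out 1 library. KLF6, a zinc finger factor, rose from 51.4 ± 2.17 to 73.2 ± 3.98 CPM in sgControl cells and averaged 0.57 ± 0.04 (edgeR adjusted p = 8.49e-06). CDKN2D, a cell cycle inhibitor, averaged 0.27 ± 0.07 (adjusted p = 0.0345) and did not pass in either genotype alone, and its average call was lost in 9 of 12 fits that left out 1 library.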
